A study of Mus musculus with 6 samples.

Results

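Interferon-stimulated genes were followed in hematopoietic stem cells (HSCs) of wild-type mice and of Cdk19 knockout mice. The set was a fixed list of 36 genes, matched to transcript clusters by gene symbol. A transcript cluster is the group of array probes assigned to 1 gene or transcript. Of the 36, 34 had a cluster that carried their symbol alone, out of 65956 clusters and 30145 named genes on the array. Ifi203 and Ifi44 had none, so their expression was not analysed here, and they enter only the promoter search. All 34 passed the filter on dim clusters. By known regulation, 24 of them are mainly type I interferon targets and 10 are targets of interferon gamma or its transcription factor IRF1. Only Irf1 had more than 1 cluster, and the brighter was used.

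Each genotype had 3 arrays, hybridised with biotin-labelled total RNA of bone marrow HSCs from mice aged 6 to 8 weeks. The wild-type group is labelled WT and the knockout group CDK19-/-, and the sample titles call the arrays of each group biological replicates. Marrow flushed from leg and hip bones was depleted of lineage-positive cells, stained and sorted by flow cytometry. The sources used here do not give the strain, the sex, the sort markers, the deleted part of Cdk19 or the number of animals behind each array. The p-values therefore measure the spread between these arrays, part of which may be technical. By its title, the series is about CDK19, a kinase of the Mediator complex, in HSC proliferation and in the control of p21 by p53.

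Type I interferons signal through a receptor of the chains IFNAR1 and IFNAR2, whose kinases JAK1 and TYK2 activate STAT proteins. With IRF9, STAT2 is part of a complex called ISGF3, which binds interferon-stimulated response elements (ISREs). Interferon gamma signals through IFNGR1 and IFNGR2 to genes with gamma-activated sites (GAS) and induces Irf1. Both types of interferon act on HSCs and can push quiescent ones into the cell cycle.

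RefSeq promoter windows (GRCm38.p6) were matched by symbol for 26 of the 36 genes. Usp18 and Rtp4, the members with the largest falls, had no window and were not searched. The 250 bases upstream of each start were searched on both strands for an ISRE core, GAAA followed after any 2 bases by GAAA again, and for the GAS core TTCNNNGAA, which is its own reverse complement. Matches of 1 motif can overlap each other. At least 1 ISRE core lay upstream of 13 of the 26 genes (50.0%), against 3.46% of all 27025 genes with a window. A GAS core lay upstream of 7 of the 26 (26.92%), against 8.13% of all genes. Among type I targets 8 of 17 held an ISRE core and 3 of 17 a GAS core. Among IRF1/gamma targets the counts were 5 of 9 and 4 of 9. Windows of 4 genes are shown because their expression went different ways: Irgm1 was lower in the knockout, Gbp3 and Irf1 were higher, and Isg15 did not pass the test. Capitals mark motif matches, and each sequence runs 5′ to 3′ on the strand of the gene and ends at the base before the start.
Irgm1 (chr11:48871421-48871670, minus strand): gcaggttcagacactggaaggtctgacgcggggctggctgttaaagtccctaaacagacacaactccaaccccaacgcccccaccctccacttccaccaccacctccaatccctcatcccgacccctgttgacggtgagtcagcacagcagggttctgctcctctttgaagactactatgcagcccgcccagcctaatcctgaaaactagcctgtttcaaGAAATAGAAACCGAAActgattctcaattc
Gbp3 (chr3:142559794-142560043, plus strand, the first of 2 starts): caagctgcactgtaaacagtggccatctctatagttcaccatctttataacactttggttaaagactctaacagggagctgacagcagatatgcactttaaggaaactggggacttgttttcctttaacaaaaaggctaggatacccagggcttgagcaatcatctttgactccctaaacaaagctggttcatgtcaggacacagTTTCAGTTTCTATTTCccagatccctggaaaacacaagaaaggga
Irf1 (chr11:53769764-53770013, plus strand, the first of 2 starts): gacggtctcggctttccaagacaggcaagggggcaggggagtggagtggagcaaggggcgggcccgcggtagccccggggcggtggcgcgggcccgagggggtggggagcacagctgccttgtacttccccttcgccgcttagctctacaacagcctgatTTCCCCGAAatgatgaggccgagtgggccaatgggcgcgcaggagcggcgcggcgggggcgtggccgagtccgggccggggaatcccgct
Isg15 (chr4:156200819-156201068, minus strand): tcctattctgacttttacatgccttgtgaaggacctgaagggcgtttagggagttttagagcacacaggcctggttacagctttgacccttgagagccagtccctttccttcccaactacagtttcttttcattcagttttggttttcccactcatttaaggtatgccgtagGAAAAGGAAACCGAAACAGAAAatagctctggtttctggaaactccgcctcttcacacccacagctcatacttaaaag
Irgm1 held 2 overlapping ISRE cores that began 30 and 24 bases before the start. Gbp3 also held 2, on the opposite strand, 45 and 39 bases before its first start, and Isg15 held 3, at 78, 72 and 66 bases. The Irf1 window held no ISRE core and 1 GAS core 90 bases before its first start. The second windows of Gbp3 and Irf1, and the window of Oasl2, held neither motif. A match describes these letters and is not evidence of binding.

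Usp18 was the member that differed most, at 2.08-fold lower in the knockout. Rtp4, Irgm1 and Oasl2 were also called lower, and Irf1 and Gbp3 were called higher, by 1.25-fold and 1.24-fold. The 34 tested members comprised 4 that fell, 2 that rose and 28 that were not called (limma, Benjamini-Hochberg adjusted p under 0.05 over 39543 clusters). Of all tested clusters 4.84% were called lower and 2.96% higher. Of 19923 named genes, each by its brightest tested cluster, 5.88% were called lower and 3.51% higher. With 1 array left out the falls were 3 without knockout array 3, 2 without wild-type array 1 and 1 without any other array, and the rises were 2 without knockout array 2 and 0 without any other. Values are the authors' and were read as log2, so fold sizes depend on that reading. In bulk RNA, fewer cells expressing a gene and less RNA per cell cannot be told apart.

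Small differences below 0 were common. The knockout mean was lower in 29 of the 34 members, against 50.3% of named genes. The members' median difference was -0.16 on the log2 scale, where that of named genes was -0.0033. In 19 members every knockout array lay below every wild-type array, and in 4 every knockout array lay above. Those patterns occurred in 19.2% and 13.1% of named genes. Measured against each gene's wild-type mean, the median over the 34 members was -0.14, -0.18 and -0.18 in knockout arrays 1, 2 and 3 and lay between -0.02 and 0.022 in the wild-type arrays. Knockout array 2 was the lowest knockout array for 20 members, array 3 for 8 and array 1 for 5, with 1 tie.

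**Figure D1:**
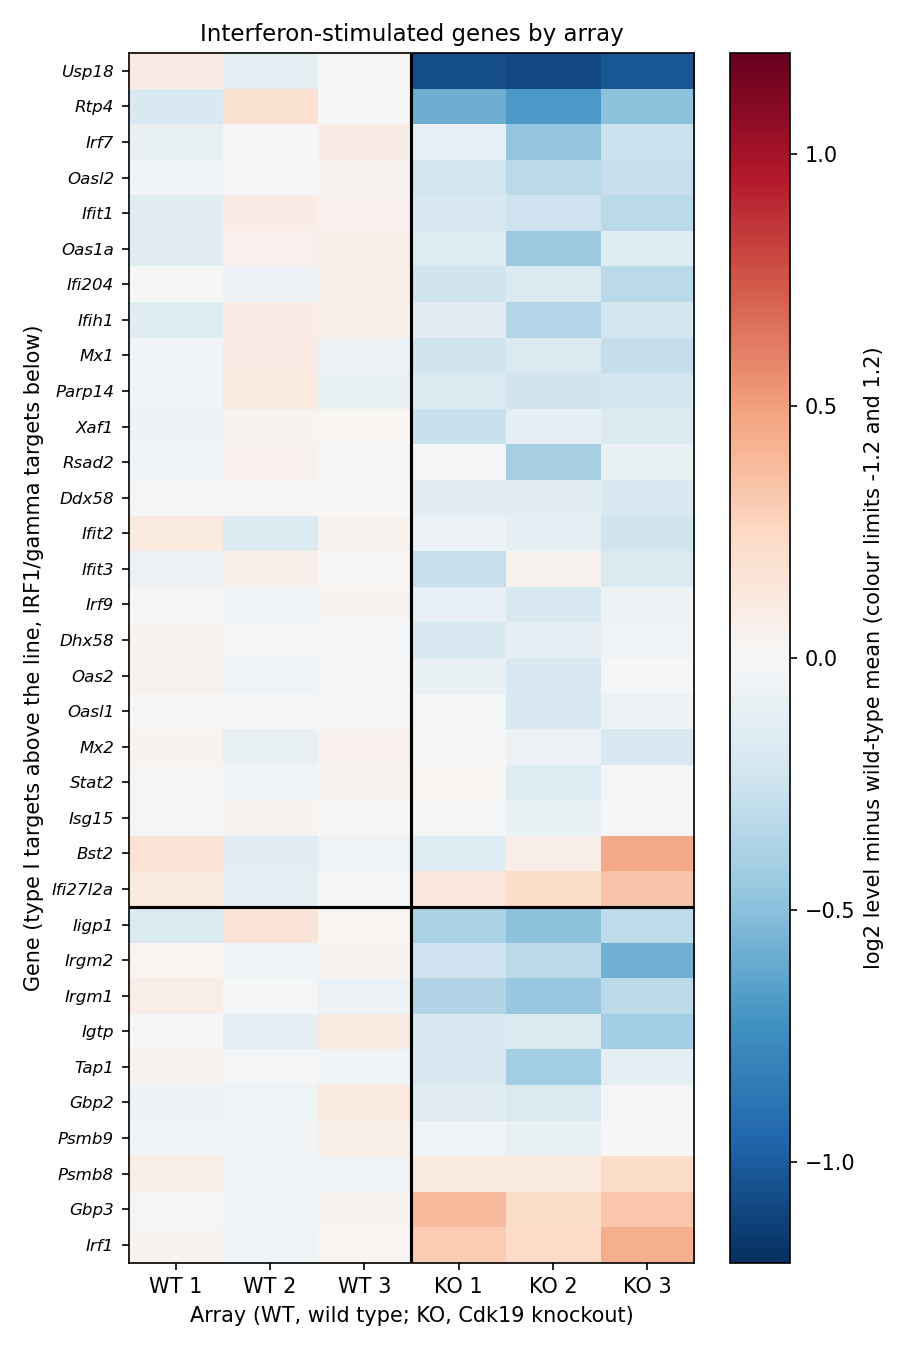
Heat map of the 34 interferon-stimulated genes (rows) in the 6 arrays (columns), where colour is the log2 level minus the mean of that gene's 3 wild-type arrays. The knockout columns are mostly blue, with Usp18 the darkest row, while Irf1, Gbp3, Psmb8 and Ifi27l2a are red in all 3 knockout arrays.

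The median difference was -0.16 in the type I targets and -0.17 in the IRF1/gamma targets, the second -0.11 without knockout array 2 and -0.11 with the stricter filter on dim clusters. Of 24 type I targets, 3 were called lower (Usp18, Rtp4 and Oasl2), 0 higher and 21 did not pass. At an unadjusted p under 0.05 in limma, 11 of the 24 were lower and 1, Ifi27l2a, was higher. The share of all named genes under that unadjusted limit was not computed. Counts at this limit, here and below, therefore have no background to be read against. The mean was lower in 22 of the 24. Of 10 IRF1/gamma targets, 1 was called lower (Irgm1), 2 higher (Irf1 and Gbp3) and 7 did not pass, and the mean was lower in 7. Differences ran from -1.06 to 0.23 in the first group and from -0.39 to 0.32 in the second. In 14 type I and 5 IRF1/gamma targets the knockout arrays lay wholly below wild type, and in 1 and 3 wholly above. The difference between the groups was not tested.

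**Figure D2:**
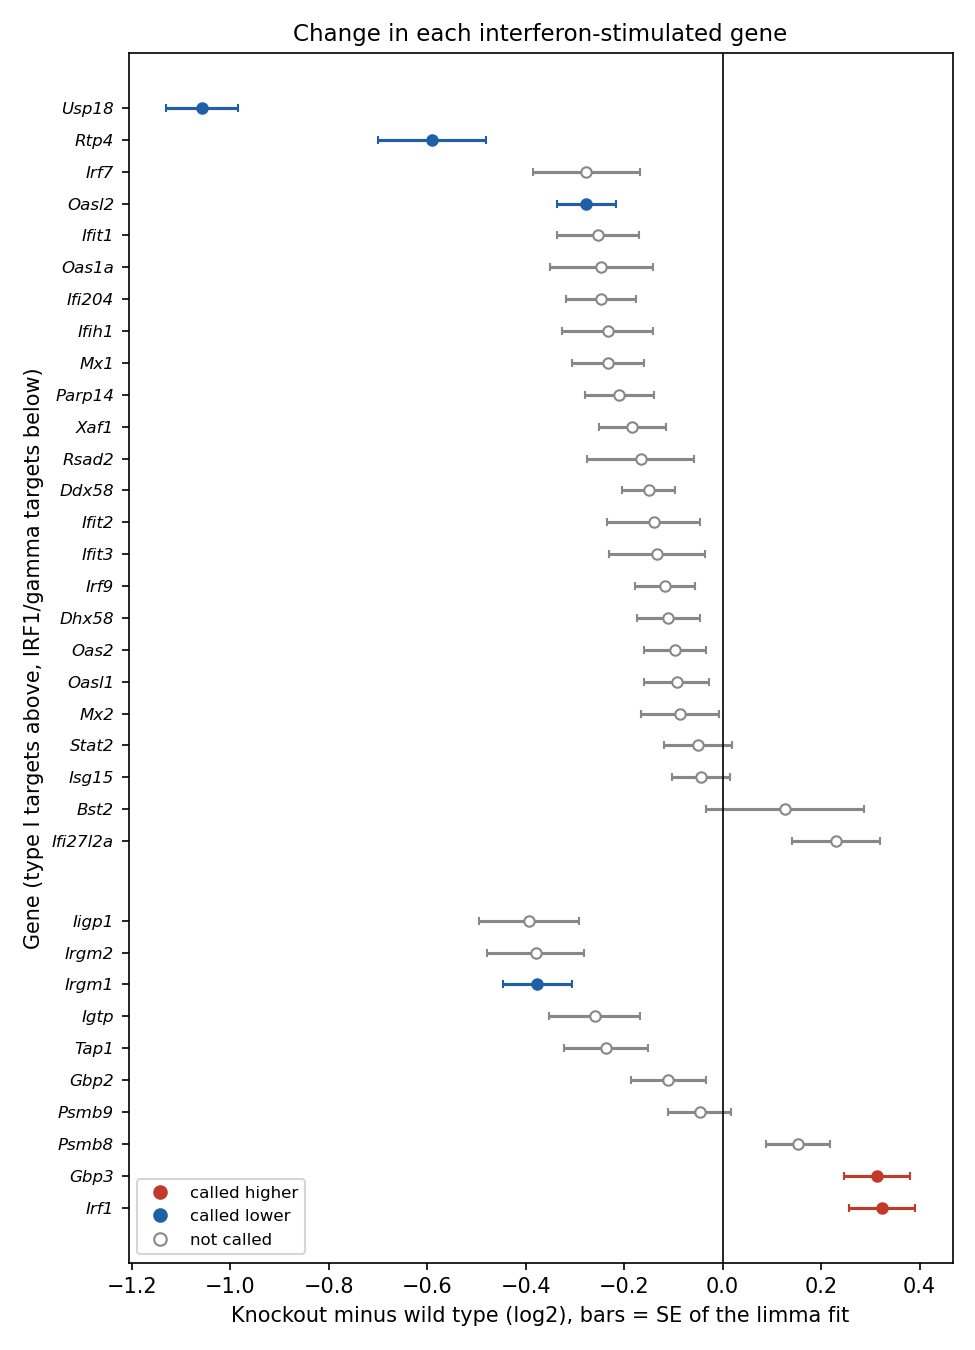
Knockout minus wild-type difference (log2, horizontal axis) for each of the 34 genes, with bars showing the standard error (SE) of the limma fit. Type I targets stand above the IRF1/gamma targets, and filled points mark called genes: Usp18 at -1.06, Rtp4 at -0.59, Oasl2 at -0.28, Irgm1 at -0.38, Irf1 at 0.32 and Gbp3 at 0.31.

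Usp18, on chromosome 6, encodes a protease that removes ISG15 from proteins and also holds back signalling at IFNAR2. It read 7.08, 6.87 and 6.99 in wild-type arrays 1, 2 and 3 and 5.92, 5.90 and 5.95 in knockout arrays 1, 2 and 3. The knockout arrays lay close together and more than the whole wild-type range below the lowest wild-type array. Its log2 difference came to -1.06 (SE 0.07; limma, Benjamini-Hochberg adjusted p = 8.5e-04). In runs with any 1 array left out it stayed between -1.11 and -1.01, at adjusted p from 0.0040 to 0.0085 (limma). Isg15, the ubiquitin-like modifier that Usp18 removes, read 5.07, 5.13 and 5.09 in wild type and 5.07, 5.02 and 5.07 in knockout. The Isg15 groups overlapped, and the difference was -0.04 (SE 0.06). Isg15 was among the dimmer members, not far above the limit on dim clusters, a mean of 4.09.

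Rtp4 of chromosome 16, which encodes an interferon-induced receptor transport protein, read 6.55, 6.92 and 6.73 in wild type and 6.15, 6.04 and 6.24 in knockout. Every knockout array was lower than every wild-type array. The log2 difference of -0.59 (SE 0.11; limma, Benjamini-Hochberg adjusted p = 0.024) is 1.51-fold. Leaving out 1 array ended the Rtp4 call for wild-type arrays 2 (limma, adjusted p = 0.067) and 3 (0.090) and for knockout arrays 1 (0.069) and 2 (0.076).

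Of the transcription factors behind the response, only Irf1 was called among Stat2, Irf9, Irf7 and Irf1. Stat2 read 8.30, 8.24 and 8.32 in wild type and 8.31, 8.13 and 8.27 in knockout, with overlapping groups, a difference of -0.05 (SE 0.07) and a change of sign to 0.0033 without knockout array 2. Irf9, the DNA-binding partner in ISGF3, read 8.82, 8.79 and 8.85 in wild type and 8.72, 8.63 and 8.76 in knockout. The Irf9 groups did not overlap, but the difference of -0.12 (SE 0.06; limma, adjusted p = 0.34) did not pass. Irf7, which amplifies type I interferon production, read 7.47, 7.55 and 7.65 in wild type and 7.46, 7.08 and 7.30 in knockout. The highest Irf7 knockout array lay just under the lowest wild-type array, and the difference of -0.28 (SE 0.11; limma, adjusted p = 0.20) did not pass.

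Irf1 encodes the factor that carries much of the interferon gamma response and is also induced by NF-kB. Its brighter cluster read 11.35, 11.27 and 11.34 in wild type and 11.62, 11.55 and 11.76 in knockout. All knockout arrays were above all wild-type arrays, with a log2 difference of 0.32 (SE 0.07; limma, Benjamini-Hochberg adjusted p = 0.035). A second, dimmer Irf1 cluster went the other way without passing, by -0.15 (SE 0.19; limma, adjusted p = 0.72), and its wild-type arrays spread from 5.37 to 5.99. With both clusters averaged the difference was 0.085 (limma, adjusted p = 0.73). Removal of wild-type array 1 (limma, adjusted p = 0.092), 2 (0.13) or 3 (0.12), or of knockout array 1 (0.081) or 3 (0.060), also ended the Irf1 call. So did keeping dim clusters in (0.054) and a shift of every array to a common median (0.072).

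**Figure D3:**
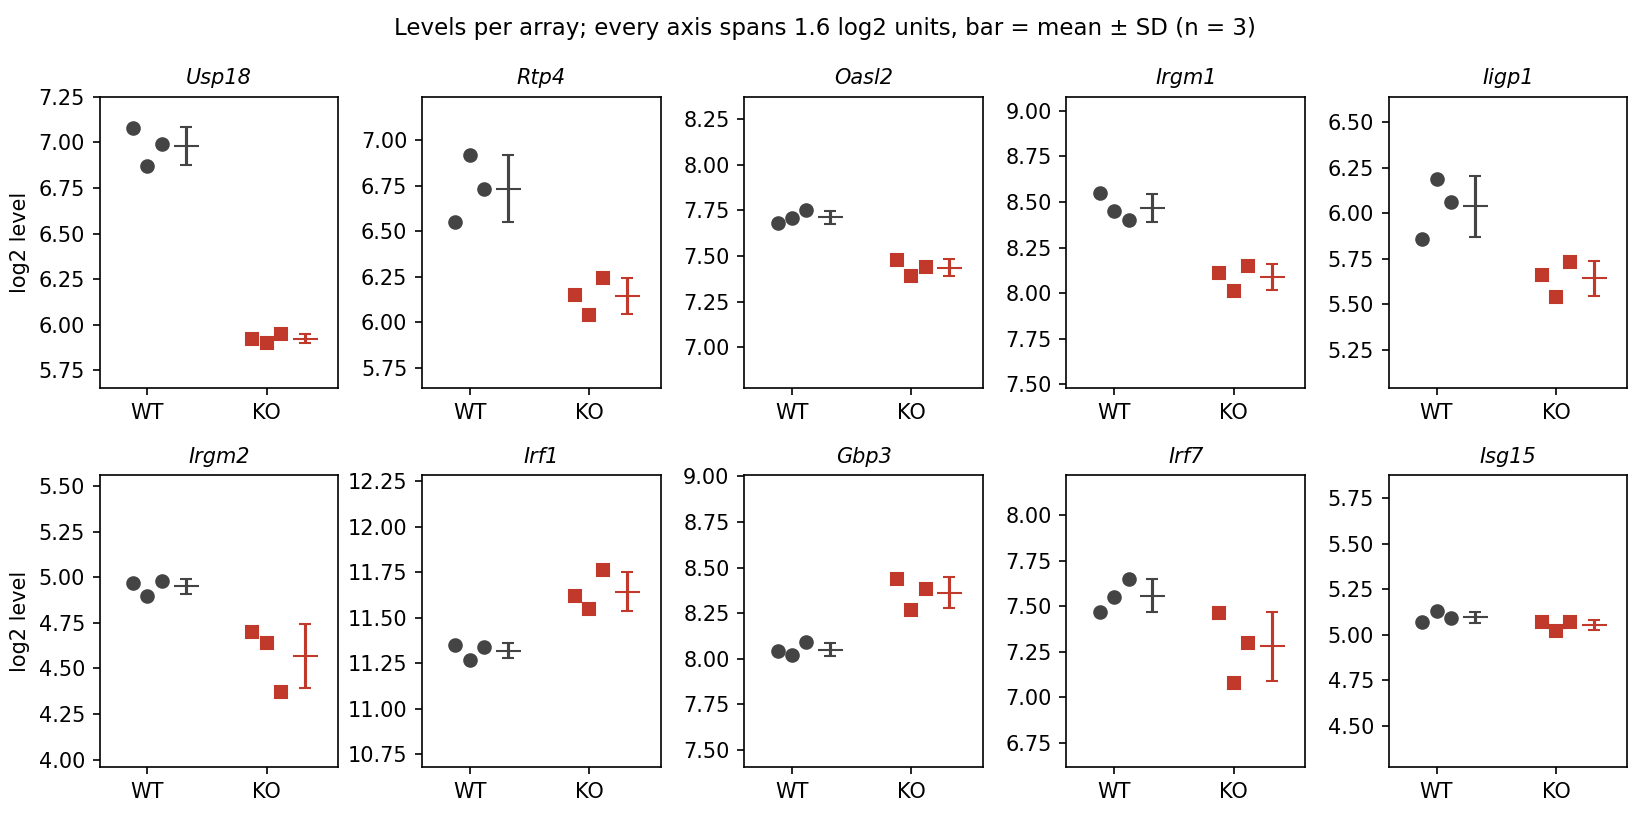
Log2 level (vertical axis, 1.6 units in every panel) of 10 genes in each wild-type (WT, circles) and knockout (KO, squares) array, with the mean ± SD (n = 3) beside the points. Usp18 falls from 6.98 to 5.92, Irf1 and Gbp3 lie higher in the knockout, and the Isg15 groups overlap.

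The OAS family is known for making the second messenger that activates RNase L. Oasl2 was the 1 of 4 that was called. It read 7.68, 7.71 and 7.75 in wild type and 7.48, 7.39 and 7.44 in knockout, with no overlap and a log2 difference of -0.28 (SE 0.06; limma, Benjamini-Hochberg adjusted p = 0.039). No run that left out 1 array kept the Oasl2 call: adjusted p (limma) came to 0.094, 0.13 and 0.15 on removal of wild-type array 1, 2 or 3, and to 0.068, 0.091 and 0.089 on removal of knockout array 1, 2 or 3. It was also lost with no filter (0.066) and with a common median (0.060). Oas1a differed by -0.25, Oas2 by -0.10 and Oasl1 by -0.09, and these did not pass.

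The cytosolic RNA sensors did not pass either. Ifih1 (MDA5) differed by -0.23, Ddx58 (RIG-I) by -0.15 and their regulator Dhx58 (LGP2) by -0.11. Ddx58 showed tight groups, 8.67, 8.71 and 8.70 in wild type and 8.56, 8.56 and 8.51 in knockout, that did not overlap (limma, adjusted p = 0.17). Among antiviral effectors, all 6 of Ifit1, Ifit2, Ifit3 (which bind viral RNA or work with those that do), Mx1, Mx2 (dynamin-like GTPases) and Rsad2 (viperin) had means below wild type, from -0.25 for Ifit1 to -0.09 for Mx2, and 0 were called. In limma, Ifit1 and Mx1 had an unadjusted p under 0.05. Of the other type I targets, the DNA-binding Ifi204 differed by -0.25, the ADP-ribosyltransferase Parp14 by -0.21 and the pro-apoptotic Xaf1 by -0.18. Bst2 (tetherin) and Ifi27l2a differed by 0.13 and 0.23. The knockout values of Bst2 spread from 11.48 to 12.09, and its sign turned (-0.038) without knockout array 3. None of these passed.

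Immunity-related GTPases (IRGs) and guanylate-binding proteins (GBPs) are interferon gamma-induced GTPases that attack the vacuoles of intracellular pathogens. Irgm1, on chromosome 11 with Igtp and Irgm2, a regulator of the other IRGs that is known for a part in HSC maintenance, read 8.55, 8.45 and 8.40 in wild type and 8.11, 8.01 and 8.15 in knockout. The groups were well apart, with a log2 difference of -0.38 (SE 0.07; limma, Benjamini-Hochberg adjusted p = 0.024). Removal of knockout array 1 (limma, adjusted p = 0.061) or 2 (0.063), or of wild-type array 1 (0.082), 2 (0.087) or 3 (0.066), ended the Irgm1 call. The other 3 IRGs lay lower in all knockout arrays without passing. Iigp1 read 5.86, 6.19 and 6.06 in wild type and 5.66, 5.54 and 5.73 in knockout, a difference of -0.39 (limma, adjusted p = 0.072). Irgm2 read 4.97, 4.90 and 4.98 in wild type and 4.70, 4.64 and 4.37 in knockout, a difference of -0.38 (limma, adjusted p = 0.070). Igtp (Irgm3) read 8.69, 8.59 and 8.80 in wild type and 8.50, 8.52 and 8.28 in knockout, a difference of -0.26 (limma, adjusted p = 0.16).

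The 2 GBPs went different ways. Gbp3 read 8.04, 8.02 and 8.09 in wild type and 8.44, 8.27 and 8.38 in knockout, all above wild type, with a log2 difference of 0.31 (SE 0.07; limma, Benjamini-Hochberg adjusted p = 0.038). Gbp2, also on chromosome 3, differed by -0.11 (SE 0.08) with overlapping groups. For Gbp3 the call ended on removal of knockout array 1 (limma, adjusted p = 0.096) or 3 (0.10) or of wild-type array 1 (0.12), 2 (0.14) or 3 (0.11), with dim clusters kept in (0.062) and with a common median (0.10). IRGs, GBPs, OAS and Ifit genes form families of similar copies, so their probes may also report relatives.

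Antigen presentation genes of chromosome 17 did not pass. Tap1, a peptide transporter, read 10.11, 10.06 and 10.04 in wild type and 9.88, 9.66 and 9.96 in knockout, a difference of -0.24 (limma, adjusted p = 0.17). Psmb8 and Psmb9, subunits of the immunoproteasome, differed by 0.15 and -0.05. All Psmb8 knockout arrays (8.82, 8.82 and 8.92) lay above the wild-type ones (8.78, 8.66 and 8.66), while the Psmb9 groups overlapped. The upstream windows of Tap1 and Psmb9, which are read in opposite directions, overlap each other.

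The rest of the interferon pathway was read from lists of 183 further genes, of which 154 had a cluster and 134 were bright enough to test. By limma with the same threshold, 23 of the 134 fell, 14 rose and 97 were not called, and the median difference was -0.10. The shares of all named genes, 5.88% called lower and 3.51% higher, are the background for these counts and for those of the single lists and markers that follow. Removal of wild-type array 1, 2 or 3 in turn left 9, 7 and 7 rises and 13, 12 and 10 falls. Of 29 called genes named by rule, 13 kept their call in all 6 runs that left out 1 array: Ifnar1, Tmem173, Socs3, Ptpn6, Tnfaip3, Cish, Ifitm1, Plscr1, Pml, Apobec3, Slfn9, Gm4951 and H2-Ab1. In the lists of further induced genes the rule named the calls with the smallest p. That share therefore does not stand for all called pathway genes.

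Among ligands, 10 of the 17 interferon genes with a cluster were too dim to test, Ifng among them, and 0 of the other 7 were called. In limma 1 of these, Ifnb1, was higher at an unadjusted p under 0.05, by 0.45 (SE 0.14; adjusted p = 0.13). Of 5 receptor chains tested 2 fell. Ifnar1 read 10.61, 10.56 and 10.67 in wild type and 10.24, 10.13 and 10.18 in knockout, with no overlap and a log2 difference of -0.43 (SE 0.06; limma, Benjamini-Hochberg adjusted p = 0.0080). Its partner Ifnar2 differed by -0.10, Ifngr1 by -0.05 and Ifngr2 by 0.05, and these did not pass. The sign of Ifngr2 turned (-0.057) without knockout array 3. Il10rb, shared by interferon lambda and interleukin-10 receptors, fell by 0.41, a call lost without any 1 wild-type array (highest adjusted p = 0.070, without array 2). In the signalling step, Jak1 differed by -0.05, Jak2 by 0.17 and Tyk2 by -0.12. Of 4 kinases and STATs tested 0 were called, and by limma's unadjusted p under 0.05 Jak2 and Stat3 were higher.

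Upstream, nucleic acid sensing genes changed in both directions, with 4 falls, 3 rises and 11 genes not called among the 18 tested. Tmem173, which encodes STING, the adaptor of cytosolic DNA sensing, read 10.83, 10.72 and 10.80 in wild type and 10.19, 10.04 and 10.05 in knockout. The gap between the groups was larger than the spread within either, with a log2 difference of -0.69 (SE 0.06; limma, Benjamini-Hochberg adjusted p = 0.0023). Tlr7, an endosomal RNA receptor, fell by 0.61, the RIG-I adaptor gene Mavs by 0.35 and the RNA editing enzyme gene Adar by 0.34. Trim25, a ubiquitin ligase of the RIG-I pathway, rose by 0.46, the DNA receptor gene Tlr9 by 0.39 and Traf6 by 0.29. These 6 calls depended on single arrays. Tlr7 was not called without any 1 wild-type array, Trim25 without wild-type array 2 or 3, Mavs without any wild-type array or knockout array 1, Tlr9 without any wild-type array or knockout array 1 or 2, Adar without wild-type array 2 or 3 or any knockout array, and Traf6 in any of the 6 runs. The highest adjusted p was 0.066 for Tlr7, 0.078 for Mavs and 0.056 for Trim25 without wild-type array 2, 0.12 for Adar and 0.12 for Traf6 without wild-type array 3, and 0.13 for Tlr9 without wild-type array 1 (limma).

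Of 10 other interferon regulatory factor genes and coregulators, 4 fell and 1 rose. Irf3, the factor activated by STING and MAVS, fell by 0.50, Irf2, a repressor of Irf1-driven genes, by 0.42, Irf8, a factor of monocyte and dendritic fate, by 0.40 and the coregulator gene Irf2bp2 by 0.27. Irf2bpl rose by 1.19. Removal of wild-type array 3 ended each of these calls, and there the adjusted p from limma was at its highest for Irf3 (0.062), Irf2 (0.070), Irf8 (0.086) and Irf2bpl (0.052). Irf2bp2 reached 0.099 without wild-type array 2 and was called only without knockout array 1. Irf2, Irf3 and Irf8 were not called without wild-type array 1 either, nor Irf8 without wild-type array 2. Of 13 genes listed as negative regulators 4 rose and 1 fell. Usp18, which also holds back signalling, is a member and so is not in that list (log2 difference -1.06). The list was drawn broadly: it holds Isg20 (0.03) and Ube2l6 (0.20), which are not clear inhibitors of interferon signalling and did not pass. The cytokine-induced inhibitor genes Cish and Socs3 rose by 1.13 and 0.75 and the NF-kB inhibitor gene Tnfaip3 by 0.81, while Socs1 differed by 0.10 without passing. The phosphatase gene Ptpn1 rose by 0.42, a call lost without wild-type array 2 or 3 (highest adjusted p = 0.059, without array 3), and the phosphatase gene Ptpn6 fell by 0.47.

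**Figure D4:**
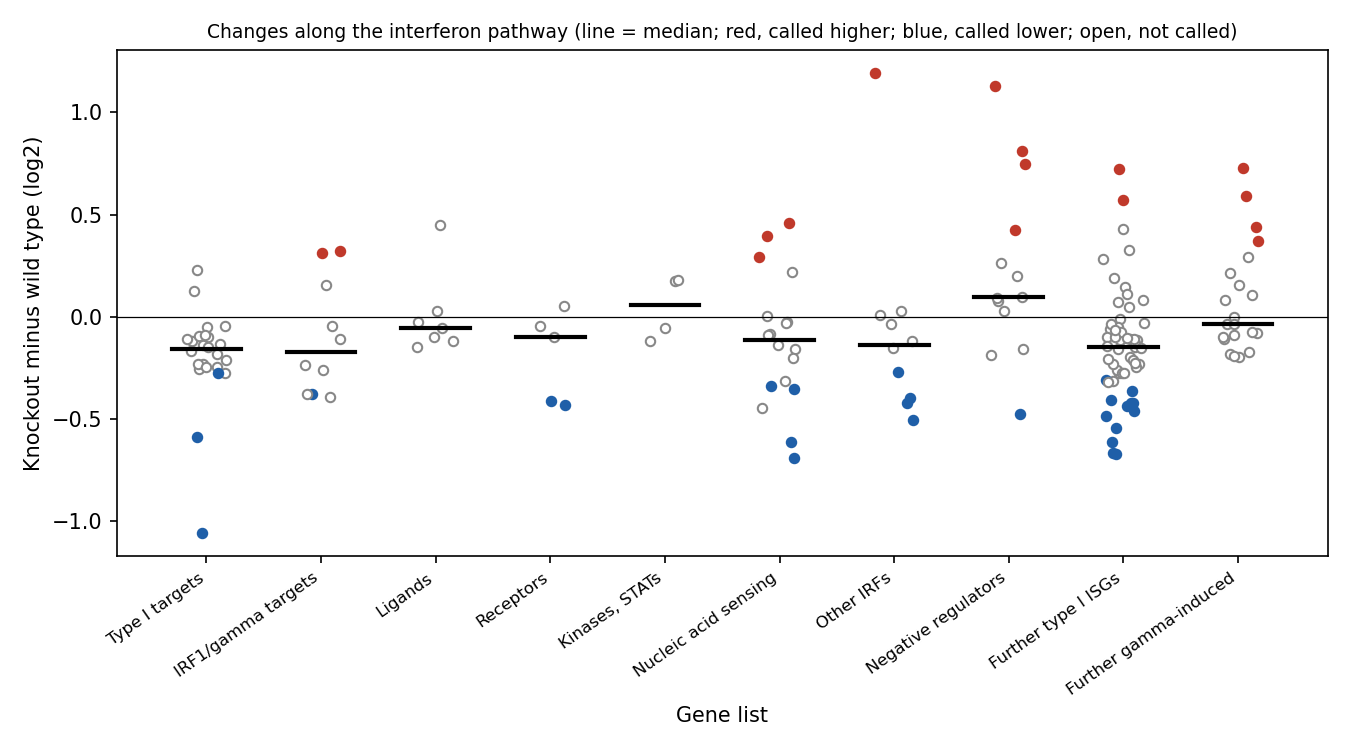
Knockout minus wild-type difference (log2, vertical axis) for every tested gene of the 2 member groups and of 8 further pathway lists (horizontal axis), with the median of each list as a black line. Red points were called higher, blue points lower and open points were not called. The genes listed as negative regulators, which leave out the member Usp18 and include Isg20 and Ube2l6, have a median of 0.10. Both member groups and the further type I genes have medians between -0.17 and -0.15.

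Further interferon-stimulated genes outside the set were read the same way, the type I targets first. The 56 tested held 12 falls, 2 rises and 42 genes not called, with a median of -0.15 and a lower mean in 45. The falls with the smallest p were Pml (nuclear body protein), by 0.67, Apobec3 (a cytidine deaminase that restricts retroviruses), by 0.49, Slfn9 (a Schlafen gene), by 0.54 and Gm4951 (an IRG-like gene), by 0.61. Ifitm1 and Plscr1, which encode membrane proteins that limit viral entry, rose by 0.72 and 0.57. The 21 further interferon gamma-induced genes held 4 rises, 0 falls and 17 genes not called, and at an unadjusted p under 0.05 in limma 5 were higher and 3 lower. The rises were H2-Ab1 by 0.73 and H2-Aa by 0.37 (MHC class II), the chemokine gene Cxcl10 by 0.59 and the inflammatory caspase gene Casp4 by 0.44. The H2-Aa call was lost in 5 runs with 1 array left out (highest adjusted p = 0.11, without wild-type array 3), that of Cxcl10 in 3 (0.070, without wild-type array 2) and that of Casp4 in 4 (0.098, without wild-type array 3). B2m differed by -0.0033 and H2-K1 by -0.04, neither of which passed. B2m read 18.57 in every array except knockout array 3 (18.56), where the highest value of the series was 19.93. Whether a change could show at that level was not tested.

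Checks of the samples were as follows. Cdk19 read 12.49, 12.45 and 12.38 in wild type and 11.49, 11.42 and 11.51 in knockout, a log2 difference of -0.97 (SE 0.05; limma, Benjamini-Hochberg adjusted p = 3.2e-04). The Cdk19 signal was thus lower in the knockout but still far above the dim limit. Because the deleted part is not given, these values do not show how much intact transcript was left. Of 15 stem and early progenitor markers with a cluster, 14 were above the dim limit and Hoxb5 was too dim to test. Wild-type means were 14.53 for Kit and 15.97 for Cd34, but 7.29 for Procr, 5.78 for Slamf1 and 5.36 for Fgd5. Of the 14, 4 were called lower and 0 higher. The log2 differences of the 4 were -0.86 for Meis1, -0.56 for Hlf, -0.47 for Kit and -0.25 for Lmo2. The knockout mean was lower in 11 of the 14 and higher in 3. The mean log2 level of that list was 8.84 to 8.87 in wild-type arrays and 8.64 to 8.67 in knockout arrays. Plasmacytoid dendritic cells, a main source of type I interferon, had 9 markers with a cluster. Of these Spib, Klk1 and Pacsin1 were too dim to test and Ly6d fell by 0.31. The list mean was 5.79 to 5.84 in wild type and 5.71 to 5.83 in knockout. That mean includes Bst2, a member of the set and the brightest marker of the list. Its knockout values spread from 11.48 to 12.09, so the list is not independent of the members. Of 11 monocyte and macrophage markers tested 2 rose (mean of the list 6.74 to 6.82 in wild type and 6.89 to 6.91 in knockout), and of 13 granulocyte markers 3 rose (8.12 to 8.24 and 8.30 to 8.42). Granulocyte markers differed widely in level. Mpo had means of 16.93 in wild type and 16.87 in knockout, and Csf3r 12.45 and 12.43, while Ltf had 4.55 and 4.59. How pure the sorted cells were was not tested. Of 8 T and natural killer markers tested 1, Gzmb, rose, while Cd3e, Cd8a, Cd2, Ncr1 and Ifng were too dim to test (4.93 to 4.99 and 5.02 to 5.06). Of 7 B cell markers 4 fell (5.22 to 5.26 and 4.88 to 4.90), and of 6 erythroid markers 1, Car1, fell (5.92 to 6.05 and 5.83 to 5.84). The part of these marker shifts in the interferon gene values was not tested.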

How the data were processed

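Total RNA of sorted bone marrow HSCs was measured on 6 arrays, 3 per genotype. For each of 65956 transcript clusters the authors deposited 1 expression value per array, read here as log2. The submitters' processing notes name MAS5 alone. The background correction, the normalization and the log base are not stated in the sources used here. Values run from 2.04 to 19.93, array medians from 4.40 to 4.48 and the 34 members from 4.37 to 12.09. The number of arrays limits the precision.

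Symbols came from the platform annotation, with a symbol repeated for 1 cluster counted once. Pathway and marker genes without a match were also sought by gene ID in RefSeq. Of all clusters 30604 had 1 symbol, 2146 several and 33206 none. The dimmest 40% by mean (4.09 or below) were left out, keeping 39543. Knockout was compared with wild type in limma 3.58.1 (R 4.3.3, lmFit and eBayes with an intensity trend), and two-sided p-values were Benjamini-Hochberg adjusted over all clusters kept. Simulated data with known changes were used to test the limma fit alone, not the gene matching, the lists or the motif search. Tables and plots used Python 3.11.15, pandas 2.3.3 and matplotlib 3.10.9.

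The members and lists were chosen with earlier results of these data known. Every member is reported. Called members and the 10 with the largest difference are given per array, as are Stat2, Irf1, Irf7, Irf9 and Isg15. Pathway genes named are all called ones of the ligand, receptor, kinase, regulatory factor, sensing and feedback lists, the main receptors and kinases, and up to 4 called each way in the lists of further induced genes. Ifnb1, Stat3, Socs1, B2m, H2-K1 and markers were named after their values were seen. Alternatives were quantile normalization, a common median, no filter, a stricter filter (60%), no trend, all clusters of a gene averaged, a replicate block and each array left out. For single pathway genes these were chosen after seeing the data.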

Additional observations from a re-analysis of the deposited data

How the results depend on the processing

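Usp18 kept its direction and call in all 13 alternatives. Direction was kept by the other 5 called members too, and calls were lost in 9 of 13 alternatives for Irf1 and Oasl2, 8 for Gbp3, 6 for Irgm1 and 5 for Rtp4. The cause was not tested. With arrays shifted to a common median 0 members were called higher, and the median was -0.19 for all members and for the type I targets. After quantile normalization both medians were -0.14. With no filter 0 members were called higher, and with all clusters of a gene averaged 1 was. The stricter filter left a median of -0.11 for the IRF1/gamma targets, where fewer members were tested.

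With the replicate number as a block, 0 members were called higher and 1 lower, 630 clusters higher and 1083 lower, and 9 pathway genes higher and 12 lower. Deviations of same-numbered arrays correlated at -0.138, -0.097 and 0.025, which shows no clear shared deviation by number. These values cannot show whether same-numbered arrays were processed together. With 1 array left out, members called higher ran from 0 to 2 and lower from 1 to 3, all clusters from 540 to 970 higher and from 761 to 1507 lower, and pathway genes from 7 to 14 higher and from 10 to 19 lower. The median ran from -0.18 to -0.15 for all members and from -0.18 to -0.15 for type I targets, and from -0.19 to -0.11 for IRF1/gamma targets. Signs turned for Stat2 (-0.087 to 0.0033), Bst2 (-0.038 to 0.27) and Ifngr2 (-0.057 to 0.12).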
